A study of Mus musculus with 14 samples.

Results

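The lymphoid transcription factors considered here are 9 genes, defined by a list of names with no threshold on their values, out of the 56414 genes with values in 14 bulk RNA-seq libraries of mouse mammary tumors. They are *Ikzf1*, *Tcf7*, *Lef1*, *Bach2*, *Tbx21*, *Eomes*, *Foxp3*, *Runx3* and *Tox*, and each was matched to 1 row of the table, the higher of 2 rows in the case of *Bach2*. Each library came from 1 tumor of a C57Bl/6 mouse. M/D-driven tumors (4 untreated and 4 NAM-treated) arose in females that were 6 to 9 weeks old when they received a 50 mg pellet releasing medroxyprogesterone acetate (MPA, a synthetic progestin) over 90 days, followed by 6 oral gavages of 200 µl of the carcinogen 7,12-dimethylbenz[a]anthracene (DMBA) at 5 mg per ml. AT3 tumors (3 untreated and 3 NAM-treated) grew from 1000000 cells of the mouse mammary carcinoma line AT3 placed under the skin of mice, so that all 6 derive from 1 cell line. NAM (nicotinamide, an amide form of vitamin B3) was given at 0.5% in the drinking water for 10 days, once tumors had reached 0.25 cm2. NAM-treated M/D-driven tumor 1 belongs to experiment 2 in the labels, the other M/D-driven tumors to experiment 1, and the AT3 tumors to experiment 3. The questions were whether NAM changed these factors in either model, whether the change differed between models, and how the untreated models compared.

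These factors set the identity of lymphocytes. *Ikzf1* encodes Ikaros, which is required for lymphoid development and is found in B, T and NK cells alike. *Tcf7* and *Lef1* encode TCF1 and LEF1, partners of beta-catenin that hold T cells in a naive, memory or stem-like state, whereas *Bach2* encodes a repressor that restrains effector differentiation in T cells and plasma cell differentiation in B cells. *Tbx21* (T-bet), *Eomes* and *Runx3* drive cytotoxic and type 1 effector programs in CD8+ T and NK cells, *Foxp3* defines regulatory T cells, and *Tox* is needed for the thymic development of T cells and for their exhausted state. *Lef1*, *Tcf7* and *Runx3* are also known outside the lymphoid lineage, including in epithelial and tumor cells.

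The members lie on 5 chromosomes of the mm10 assembly. *Ikzf1* (chromosome 11, 11685925 to 11772926, plus strand), *Tcf7* (chromosome 11, 52252283 to 52283020, minus strand) and *Runx3* (chromosome 4, 135120645 to 135177990, plus strand) overlap no exon of another gene, and neither does *Tbx21* (chromosome 11, 97098007 to 97115332, minus strand). *Lef1* (chromosome 3, 131110297 to 131224357, plus strand), *Bach2* (chromosome 4, 32417435 to 32586108, plus strand), *Eomes* (chromosome 9, 118478189 to 118487608, plus strand) and *Tox* (chromosome 4, 6687316 to 6991557, minus strand) share 1208, 537, 118 and 260 exonic bases with genes on the other strand. *Foxp3* (chromosome X, 7579674 to 7595243, plus strand) shares 1513 exonic bases with *Ccdc22* and *Gm36995*, on the other strand, and *Flicr*, on its own strand. No source used here states whether reads were counted by strand, so that reads of *Lef1*, *Bach2*, *Eomes*, *Tox* and *Foxp3* cannot be told apart from those of these partners in the shared bases. In the 550 bases shared with *Flicr*, counting by strand would not separate them either.

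Libraries held 40936868 to 84178009 reads counted on genes. Values are normalized counts, in which the 2 models were scaled apart from each other. All 9 members passed the filter on low values (a group mean of at least 10 normalized counts in at least 1 group) in every comparison. A gene counted as called where limma gave an unadjusted p no higher than 0.05 together with a change of 1.5-fold or more, and the p adjusted over all genes tested by Benjamini-Hochberg is given beside it.

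A single library stood apart from the rest. In NAM-treated M/D-driven tumor 1, the summed count of 10 precursor B cell markers was 260934, against 2842 to 3658 in the 7 other M/D-driven tumors, and *Rag2*, a recombinase gene of developing lymphocytes, had 9006 normalized counts there against 0 in the other 7. The sum of 9 epithelial markers was 8368 in that tumor, against 274623 to 1042765 in the others. *Cd3d*, *Cd3e* and *Cd3g* were at their lowest of the 8 tumors, whereas the T cell markers *Lck* and *Cd2* were at their highest. Against the median of the other 7 tumors, this library had 125-fold more *Lef1*, 21.3-fold more *Ikzf1* and 9.28-fold more *Bach2*, and 0.154 times their *Foxp3* and 0.359 times their *Tox*. The part of these cells in the effect of NAM on the members was not tested, and the tumor is at once the only one of experiment 2, so the M/D fold change of each member and the counts over the gene lists in that model are given with and without it. Without it, only experiment 1 is left.

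**Figure D1:**
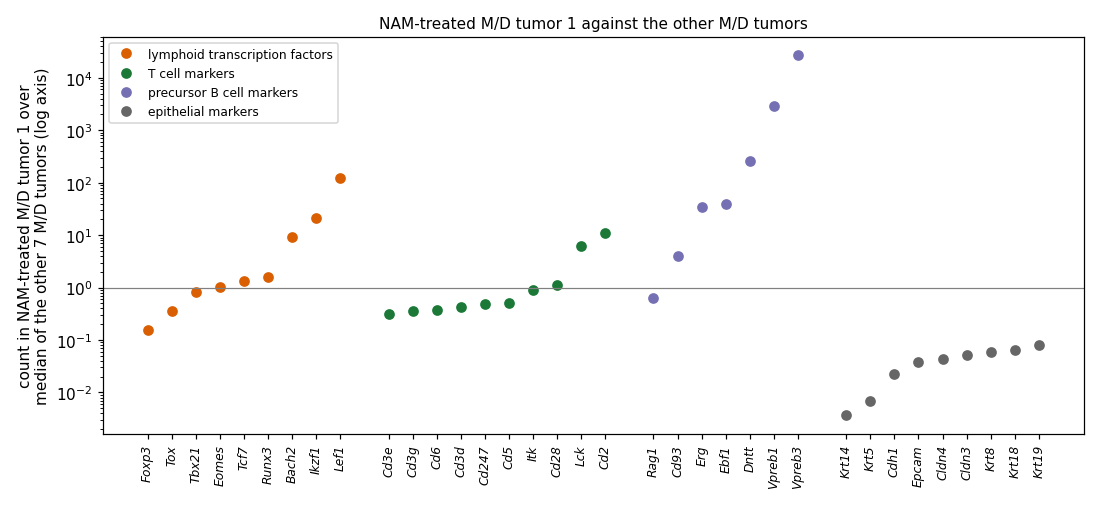
Normalized count of each gene in NAM-treated M/D-driven tumor 1 divided by the median of the 7 other M/D-driven tumors (vertical log axis, 1 point per gene), for the 9 members and for markers of T cells, precursor B cells and epithelium, with genes whose median was 0 left out. *Lef1* lies at 125, *Ikzf1* at 21.3 and *Foxp3* at 0.154, and each of the 9 epithelial markers lies below 1.

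The effect of NAM in M/D-driven tumors was examined first. *Lef1* was the 1 member of 9 past the thresholds, and it was higher with NAM, where 3.03% of the 21700 genes tested were called higher. None of the members was called lower, against 3.19% of genes tested. Above 0 were 7 of the 9 log2 fold changes, with a median of 0.45, compared with 51.1% of genes tested and a median of 0.01. By limma, 0 members and 1 gene in all (0.00461%) had an adjusted p of at most 0.05. By DESeq2 on the recovered reads, where 179 genes did, *Lef1* had a log2 fold change of 5.16 and an adjusted p of 0.00987. *Ikzf1* and *Bach2* were given no p value there. That DESeq2 fit included NAM-treated tumor 1. As these are whole tumors, fewer cells of a type and less RNA per cell cannot be told apart in any value given here. The call of *Lef1* held in 3 of the 8 fits that left out 1 tumor, and without NAM-treated tumor 1 it was no longer past the thresholds. In that fit *Runx3* became lower and *Tox* higher, where 2.33% of 21489 genes were called lower and 2.85% higher.

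Among the factors of naive and memory cells, *Lef1* had 99.7, 20.6, 17.3 and 22.5 normalized counts in untreated M/D-driven tumors 1 to 4, and 5077, 591, 40.5 and 90.7 in NAM-treated tumors 1 to 4. Untreated tumor 1 was above 2 of the NAM-treated tumors, so the groups overlapped. The log2 fold change was 3.39 (SE 1.42), with an adjusted p of 0.734 by limma. Without NAM-treated tumor 1 it was 2.07 (SE 1.00), at an unadjusted p of 0.075 in limma across 21489 genes. Leaving out untreated tumor 2, 3 or 4 or NAM-treated tumor 2 also ended the call, at log2 fold changes of 3.22, 3.14, 3.26 and 3.11.

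*Tcf7* had 2363, 828, 1224 and 1220.0 normalized counts in untreated M/D-driven tumors and 1641, 4813, 1521 and 444 in NAM-treated ones. Both the highest and the lowest of the 8 values were in NAM-treated tumors, and the log2 fold change was 0.22 (SE 0.67; 0.18 without NAM-treated tumor 1). *Bach2* had 2644, 2622, 1619 and 1147 normalized counts without NAM and 15020.1, 645, 1407 and 1811 with it. The NAM-treated values of tumors 2 to 4 lay within or below the untreated range, and the log2 fold change of 0.24 (SE 0.87) became -0.68 (SE 0.44) without NAM-treated tumor 1. *Ikzf1* followed the same tumor. It had 409, 292, 384 and 220.5 normalized counts in untreated tumors and 7693, 223, 361 and 731 in NAM-treated ones, with a log2 fold change of 1.37 (SE 0.99) that was 0.29 (SE 0.44) without that tumor. None of these 3 genes passed the thresholds in either fit.

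Among the factors of effector cells, *Runx3* varied least among untreated M/D-driven tumors relative to its mean, at 603, 644, 719 and 735 normalized counts (675 ± 62.2, SD, n = 4). NAM-treated tumors had 969, 244, 124 and 389.9. The 3 NAM-treated tumors of experiment 1 all lay below the 4 untreated ones, and tumor 1 lay above them. Over all 8 tumors the log2 fold change was -1.04 (SE 0.56) and did not pass the thresholds. Without NAM-treated tumor 1, *Runx3* was lower by limma, with a log2 fold change of -1.56 (SE 0.38), an unadjusted p of 0.00387 and an adjusted p of 0.812. *Runx3* was the 1 member called lower in that fit, where 2.33% of 21489 genes were called lower, and the 1 member whose groups did not overlap, as for 3.01% of genes in this direction.

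*Runx3* is transcribed from a distal and a proximal promoter, and the counts do not separate their transcripts. The 250 bases before its distal start site (chr4:135120395-135120644, plus strand, GRCm38.p6) are printed here from RefSeq. *Runx3* was chosen as the member whose NAM effect differed between the models before adjustment, at an adjusted p of 0.215 by limma. RUNX proteins are known to recognize TGTGGT. Capitals mark that motif, searched on both strands, here in the form ACCACA.
*Runx3* distal: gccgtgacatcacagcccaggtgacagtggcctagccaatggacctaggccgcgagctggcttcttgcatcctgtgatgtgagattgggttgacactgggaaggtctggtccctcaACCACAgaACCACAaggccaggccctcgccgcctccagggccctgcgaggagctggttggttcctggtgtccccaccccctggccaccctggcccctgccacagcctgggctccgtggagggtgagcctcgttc
The motif was found 2 times in these bases, and at least once in 14.05% of the 32851 promoter windows of the same length in the RefSeq set. The window before the proximal start site (chr4:135152295-135152544) held 0 matches. These matches describe the letters only.

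*Tbx21* had 272, 143, 126 and 69.2 normalized counts in untreated M/D-driven tumors and 118, 134, 170.3 and 439 in NAM-treated ones. NAM-treated tumor 4, which had the highest summed Cd3 count of the 8 tumors, was also the highest here, and the log2 fold change was 0.45 (SE 0.55). *Eomes* had 113, 41.3, 55.6 and 20.1 without NAM and 56.0, 31.7, 139.9 and 115 with it, with a log2 fold change of 0.60 (SE 0.66). Without NAM-treated tumor 1, the values were 0.66 (SE 0.58) for *Tbx21* and 0.73 (SE 0.73) for *Eomes*, and neither gene passed the thresholds in either fit.

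*Foxp3* had 279, 67.4, 165 and 154 normalized counts in untreated M/D-driven tumors and 25.5, 190.0, 125 and 335 in NAM-treated ones. NAM-treated tumor 1 was the lowest of the 8, and the log2 fold change of -0.30 (SE 0.79) became 0.43 (SE 0.55) without it. *Tox* had 248, 84.7, 125 and 108 without NAM and 73.0, 203, 407 and 519.8 with it. NAM-treated tumor 1 was again the lowest. The log2 fold change of *Tox* was 0.86 (SE 0.65) over all tumors. Without that tumor *Tox* was higher by limma, at 1.43 (SE 0.48), an unadjusted p of 0.0188 and an adjusted p of 0.812. In that fit 2.85% of 21489 genes were called higher. Untreated tumor 1 exceeded NAM-treated tumor 2, so the groups of *Tox* overlapped in that fit too.

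**Figure D2:**
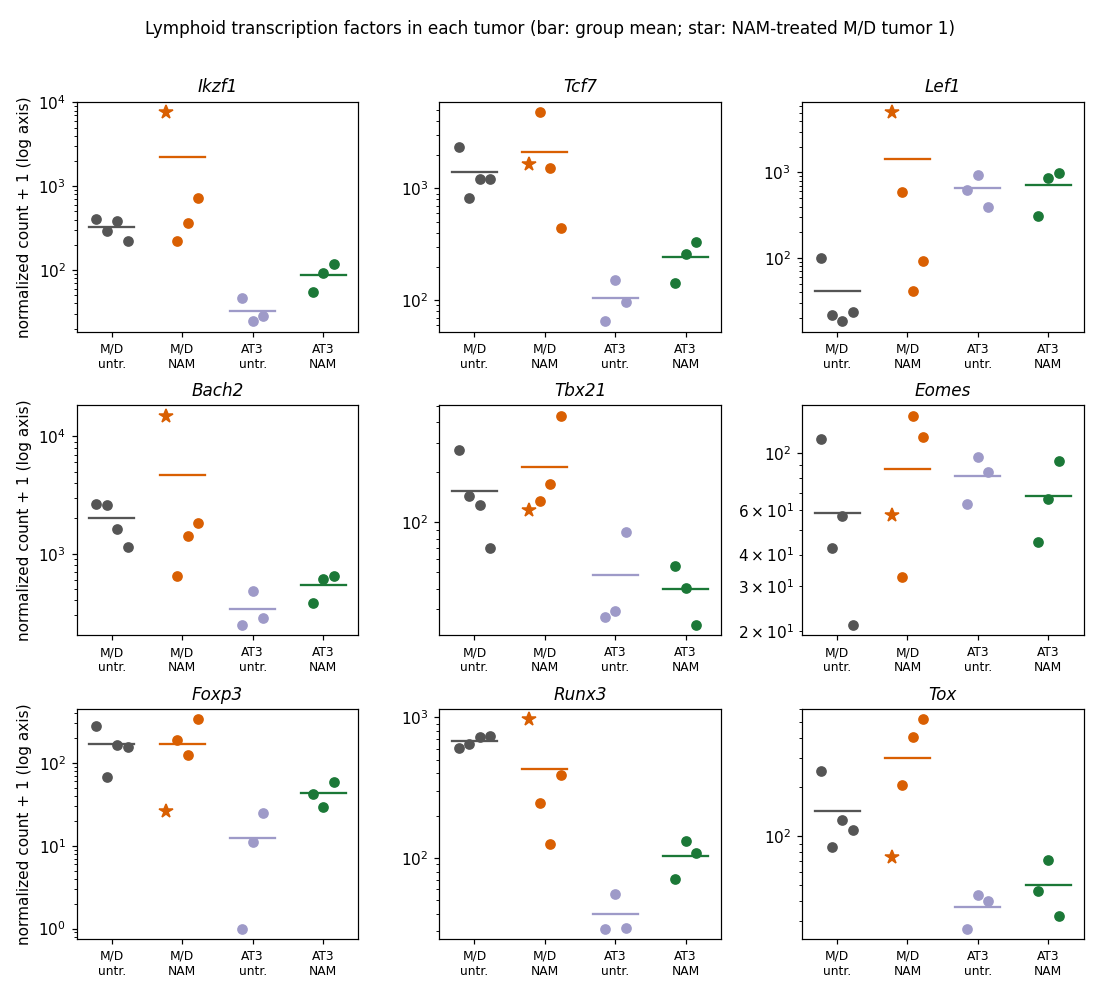
Normalized count plus 1 of each member (vertical log axis, 1 panel per gene) in untreated and NAM-treated M/D-driven and AT3 tumors, with 1 symbol per tumor, a star for NAM-treated M/D-driven tumor 1 and a bar for the group mean. The star is the highest of the M/D-driven tumors for *Ikzf1*, *Lef1*, *Bach2* and *Runx3* and the lowest for *Foxp3* and *Tox*; the 2 models were scaled apart.

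In AT3 tumors, 4 of the 9 members were higher with NAM, namely *Ikzf1*, *Tcf7*, *Foxp3* and *Runx3*, where 12.2% of the 19281 genes tested were called higher. None was called lower, against 10.9% of genes tested. Log2 fold changes were above 0 for 7 of 9 members, with a median of 0.71, compared with 47.5% of genes tested and a median of -0.05. By limma, adjusted p values of the 4 genes, in this order, were 0.166, 0.169, 0.185 and 0.166, and 1 gene in all (0.00519%) had one of at most 0.05. By DESeq2, where 2047 genes did, adjusted p values were 0.0317, 0.0493, 0.143 and 0.0311. Fold changes of all genes in this comparison rose with transcript length (Spearman's rho 0.59 across the 16444 genes of known length, a relation across genes that do not replicate each other), so each member is also given with the trend of length and GC content removed.

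*Runx3* had 30.4, 54.8 and 30.9 normalized counts in untreated AT3 tumors 1 to 3, and 69.3, 132 and 107 in NAM-treated tumors 1 to 3. The groups did not overlap. Its log2 fold change was 1.39 (SE 0.41), or 1.05 (SE 0.33) with the length trend removed, and the gene stayed past the thresholds in both fits and without any single tumor. *Ikzf1* had 44.9, 23.4 and 26.9 without NAM and 53.5, 92.2 and 116 with it. Its groups did not overlap either, and its log2 fold change was 1.42 (SE 0.45), or 0.96 (SE 0.40) with the trend removed. Without NAM-treated AT3 tumor 3 it was 1.18 and no longer called. *Runx3*, *Ikzf1* and *Foxp3* were the 3 members with groups apart, as were 11.7% of genes tested in this direction.

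*Foxp3* had 0, 10.2 and 23.6 normalized counts in untreated AT3 tumors and 41.3, 28.2 and 57.0 in NAM-treated ones. These values rest on 0 to 69 reads per tumor. The log2 fold change of 2.68 (SE 1.07) depended on untreated tumor 1, which was at 0, as it was 1.33 (SE 0.59) and not called without that tumor. The call was also lost without NAM-treated tumor 1 or 3 (2.66 and 2.44) and with the length trend removed (2.36). On the recovered reads of all AT3 tumors, the log2 fold change of *Foxp3* was 1.85 by edgeR, not called, and 1.88 by DESeq2, called.

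*Tcf7* had 63.8, 149 and 96.05 normalized counts in untreated AT3 tumors and 142, 259 and 333 in NAM-treated ones. Untreated tumor 2 exceeded NAM-treated tumor 1, so the groups overlapped, and the log2 fold change was 1.24 (SE 0.42), or 1.35 (SE 0.43) with the trend removed. Its call was lost without untreated tumor 1 (0.94) and without NAM-treated tumor 2 or 3 (1.16 and 0.97). *Bach2* had 246, 482 and 283 without NAM and 378, 608 and 648 with it. It was not called, with a log2 fold change of 0.71 (SE 0.33) that was -0.09 (SE 0.19) with the trend removed, and its transcript is the longest of the 9 at 8882 nucleotides. It became higher without untreated tumor 2 (1.00) or NAM-treated tumor 1 (0.96).

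*Lef1*, the member with the largest fold change in M/D-driven tumors, had 622, 934 and 399.7 normalized counts in untreated AT3 tumors and 309.8, 857 and 985 in NAM-treated ones. The groups covered the same range, and the log2 fold change was 0.06 (SE 0.47), or -0.044 (SE 0.45) with the trend removed. *Tbx21* had 26.1, 28.4 and 86.3 without NAM and 53.5, 39.5 and 23.1 with it (log2 fold change -0.13, SE 0.57, or -0.097, SE 0.59, with the trend removed). *Eomes* had 62.3, 95.4 and 83.8 without NAM and 43.7, 64.9 and 92.5 with it (-0.30, SE 0.39, or -0.53, SE 0.34, with the trend removed). *Tox* had 26.1, 42.6 and 39.1 without NAM and 45.0, 70.6 and 31.4 with it (0.39, SE 0.45, or 0.24, SE 0.43, with the trend removed). Thus the 4 remaining genes did not pass the thresholds, and their groups overlapped. Exact two-sided permutation tests of each member within a model gave no p below 0.1 in AT3 tumors, the smallest that 3 against 3 allows, reached by 3 members, and none below 0.0857 in M/D-driven tumors, where 0.0286 was possible.

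**Figure D3:**
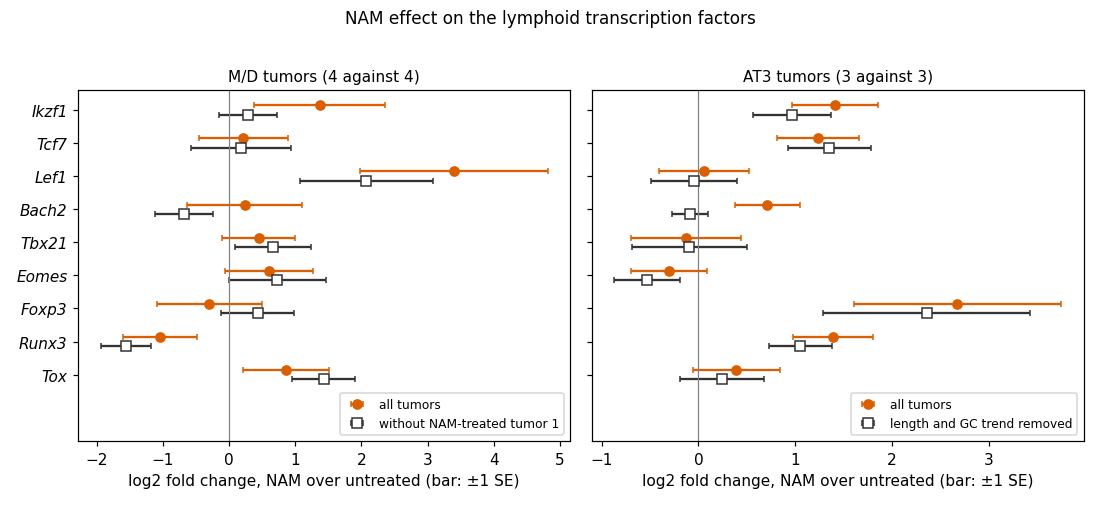
Log2 fold change of each member, NAM-treated over untreated, with 1 standard error on each side (horizontal axis), in M/D-driven tumors with all tumors and without NAM-treated tumor 1, and in AT3 tumors as measured and with the length and GC trend removed. *Runx3* lies at -1.04 and -1.56 in M/D-driven tumors and at 1.39 and 1.05 in AT3 tumors.

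The effect of NAM on *Runx3* differed between the models before adjustment. The difference of the log2 fold changes, M/D-driven minus AT3, was -2.43 (SE 0.76) by limma over the 14 tumors, with an unadjusted p of 0.0069 and an adjusted p of 0.215. *Runx3* was the 1 member past the thresholds, lower in this direction, as were 7.9% of 22710 genes, and 0 members were past them in the other direction, against 6.97%. The value was -2.95 (SE 0.57) without NAM-treated M/D-driven tumor 1 and -2.09 (SE 0.76) with the length trend removed, past the thresholds both times, and it stayed past them without any other single tumor. Differences were 3.34 (SE 1.77) for *Lef1* and -2.98 (SE 1.44) for *Foxp3*, neither past the thresholds over the 14 tumors. That of *Lef1* passed without untreated M/D-driven tumor 1 (3.90) or NAM-treated M/D-driven tumor 3 or 4 (4.33 and 3.95), and that of *Foxp3* without untreated M/D-driven tumor 2 (-3.35), NAM-treated M/D-driven tumor 4 (-3.47) or untreated AT3 tumor 3 (-3.94). Without NAM-treated M/D-driven tumor 1, *Lef1* was at 2.02 (SE 1.21) and *Foxp3* at -2.25 (SE 1.29), neither past the thresholds. *Bach2* passed in that fit, at -1.39 (SE 0.59), where 9.55% of 22538 genes were called lower. Over the 14 tumors, the 6 members other than *Runx3*, *Lef1* and *Foxp3* had differences from -1.02 to 0.90. As no gene of 22710 had an adjusted p of at most 0.05 by limma, against 3387 at an unadjusted p under that value, none of these differences held after adjustment by that tool. By DESeq2 on the recovered reads of the 14 tumors, NAM-treated M/D-driven tumor 1 included, *Lef1* had an adjusted p of 0.038 in the difference and *Runx3* one of 0.128.

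Levels were then compared between members, per kilobase of the longest transcript. In untreated M/D-driven tumors *Tcf7* was the highest, at 570.1 ± 268 normalized counts per kilobase (SD, n = 4), followed by *Bach2* (226 ± 84.1) and *Runx3* (174 ± 16.0), and *Lef1* was the lowest (10.95 ± 10.9). Neighbours in this order overlapped in range, except *Tcf7* with *Bach2* and *Runx3* with *Ikzf1*. In untreated AT3 tumors the order began with *Lef1*, at 178 ± 73.4 normalized counts per kilobase (SD, n = 3), followed by *Tcf7* (41.7 ± 17.5) and *Bach2* (38.0 ± 14.3), and ended with *Foxp3* (2.94 ± 3.09). *Lef1* was apart from *Tcf7* and *Bach2* from *Eomes*, and the other neighbours overlapped. Counts were made on constitutive regions of genes, so that lengths of whole transcripts only approximate the counted length.

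Untreated tumors of the 2 models differed in 8 of 9 members, on reads rescaled to 1 scale over the 14 tumors. The model and the experiment cannot be told apart in this comparison. *Ikzf1*, *Tcf7*, *Bach2*, *Tbx21*, *Foxp3*, *Runx3* and *Tox* were higher in M/D-driven tumors, 7 of 9 against 33.4% of the 21724 genes tested, and *Lef1* was lower, against 22.7%. The median log2 fold change of the members was 2.31, and that of all genes tested 0.22. Fold changes of all genes rose with transcript length here too (Spearman's rho 0.32 across the 18262 genes of known length). *Bach2* has the longest transcript of the 9 members, at 8882 nucleotides. Fold changes of the members between untreated models are given with this trend left in unless stated, so they include any part that follows length. Adjusted p values by limma were at most 0.05 for 7 members, *Lef1* included and *Tbx21* not, and for 51.2% of all genes tested. Of the 10 T cell markers, 9 were likewise higher, and their summed normalized count was 3225 to 8188 in untreated M/D-driven and 434 to 2044 in untreated AT3 tumors, each on the scale of its model. The part of T cell number in these differences was not tested.

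*Runx3* had 598, 647, 711 and 712 rescaled counts in untreated M/D-driven tumors and 34.7, 64.2 and 36.6 in untreated AT3 tumors, a log2 fold change of 3.91 (SE 0.31). *Tcf7* had 2342, 831, 1210.1 and 1182 against 72.8, 175 and 114 (3.50, SE 0.41). *Ikzf1* had 406, 293, 380.1 and 214 against 51.3, 27.3 and 31.8 (3.11, SE 0.38). The groups of these 3 genes did not overlap, as for 31.4% of the 21724 genes tested in this direction. Adjusted p values by limma were 7.81e-05, 0.000355 and 0.000427. *Foxp3* had 276.9, 67.6, 163 and 149 rescaled counts against 0, 11.9 and 27.9, and its log2 fold change of 4.36 (SE 1.07), on an AT3 tumor at 0, was 2.93 without that tumor. *Bach2* had 2619, 2632, 1601 and 1111 against 281, 564 and 335 (2.31, SE 0.37). The lowest M/D-driven tumor was above the highest AT3 tumor in both genes. *Tox* had 246, 85.1, 123 and 105 against 29.8, 49.9 and 46.2 (1.62, SE 0.46). *Tbx21* had 269.7, 144, 125 and 67.1 against 29.8, 33.3 and 102 (1.504, SE 0.60). *Tox* did not overlap between models, whereas *Tbx21* did, and its call was lost without untreated M/D-driven tumor 1 or 3 (1.17 and 1.54), without untreated AT3 tumor 1 or 2 (1.19 and 1.27) and with the length trend removed (1.497).

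*Lef1* was the 1 member called lower in untreated M/D-driven tumors. It had 98.8, 20.7, 17.1 and 21.8 rescaled counts in untreated M/D-driven tumors and 709.7, 1093 and 472 in untreated AT3 tumors. The groups did not overlap, as for 22.4% of genes tested in this direction. The log2 fold change was -4.54 (SE 0.63), that is, 23.3-fold lower in M/D-driven tumors, with an adjusted p of 0.000724 by limma. The 250 bases before its first RefSeq start site (chr3:131110047-131110296, plus strand, GRCm38.p6) are printed because *Lef1* is the member called lower here and its own family binds CTTTGA or CTTTGT, which capitals would mark on either strand.
*Lef1*: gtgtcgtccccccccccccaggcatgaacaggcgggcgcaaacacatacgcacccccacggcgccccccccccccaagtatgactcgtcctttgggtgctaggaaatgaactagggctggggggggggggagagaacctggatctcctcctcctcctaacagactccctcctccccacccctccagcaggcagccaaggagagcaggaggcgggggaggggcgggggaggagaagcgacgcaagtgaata
This window and those before the 2nd and 3rd start sites held 0 matches, the window before the 4th (chr3:131156044-131156293) held 3, and 27.6% of the 32851 promoter windows held at least 1. The printed window lies within an exon of *Gm43352* on the other strand. *Eomes* had 112, 41.4, 54.9 and 19.5 against 71.1, 112 and 99.1. Its log2 fold change of -0.95 (SE 0.59) was not past the thresholds and became so without untreated M/D-driven tumor 1 (-1.35).

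**Figure D4:**
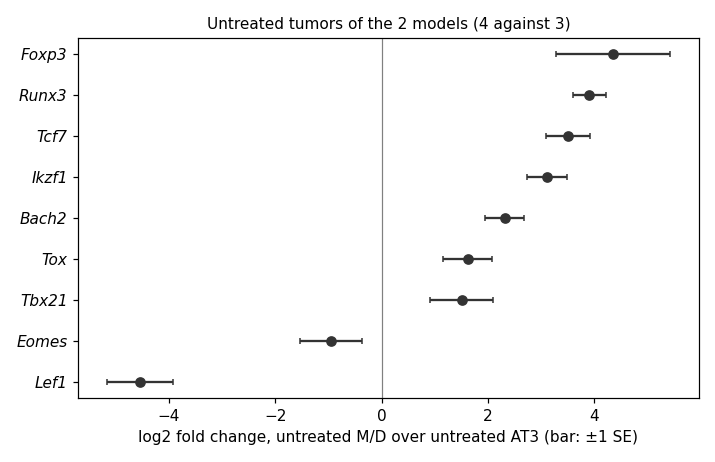
Log2 fold change of each member between untreated M/D-driven (4) and untreated AT3 tumors (3), with 1 standard error on each side, on reads rescaled to 1 scale over the 14 tumors. *Lef1* lies at -4.54, *Eomes* at -0.95 and the other 7 members between 1.504 and 4.36.

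The members were also set against the summed counts of the Cd3 chains *Cd3d*, *Cd3e* and *Cd3g*, which assemble with the T cell receptor. The sum was 1045 to 2694 normalized counts in untreated M/D-driven tumors, 535, 1326, 1241 and 3901 in NAM-treated ones, and 142 to 996 in the 6 AT3 tumors. Per 100 Cd3 counts, *Lef1* was at 1.15 to 3.70 in untreated M/D-driven tumors, at 949, 44.5, 3.26 and 2.32 in NAM-treated ones, and at 39.3 to 657 in AT3 tumors. Hence each AT3 tumor had more *Lef1* per Cd3 count than each untreated M/D-driven tumor, and so did NAM-treated M/D-driven tumors 1 and 2. *Tcf7* was at 67.9 to 117 in untreated M/D-driven tumors and at 307, 363, 123 and 11.4 in NAM-treated ones. NAM-treated tumors 1, 2 and 3 were above the untreated range and tumor 4 was below it. *Runx3* was at 22.4 to 70.3 in untreated M/D-driven tumors and at 181, 18.4, 10.0 and 9.99 in NAM-treated ones, so the 3 NAM-treated tumors of experiment 1 were again below all untreated tumors.

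In the fit relative to Cd3 counts, 7 of the 9 members had log2 fold changes above 0 in M/D-driven tumors, as did 63.8% of genes tested. *Lef1* was the 1 member called higher, at 3.54 (SE 1.28) and an adjusted p of 0.835 by limma. Of 21700 genes, 0.876% were called higher and 2.98% lower. Without NAM-treated tumor 1 it was 1.77 (SE 0.96) and not called, whereas *Runx3* was called lower at -1.86 (SE 0.67), as 2.37% of genes were. *Ikzf1* was called higher without NAM-treated tumor 2 (2.13), and *Tcf7* without NAM-treated tumor 4 (1.46). In AT3 tumors *Foxp3* was the 1 member called higher, at 2.73 (SE 1.38) and an adjusted p of 1.00 by limma, against 0.254% of 19281 genes, and 0 members were called lower, against 0.145%. It was not called without untreated tumor 1 (1.34) or without NAM-treated tumor 1, 2 or 3 (3.25, 2.88 and 2.05). *Ikzf1* (1.47), *Runx3* (1.44) and *Tcf7* (1.29) had log2 fold changes close to those without the Cd3 reference, but with standard errors of 1.15 to 1.21 they did not pass. Without untreated AT3 tumor 2, *Runx3* (2.43) and *Tcf7* (2.32) did.

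**Figure D5:**
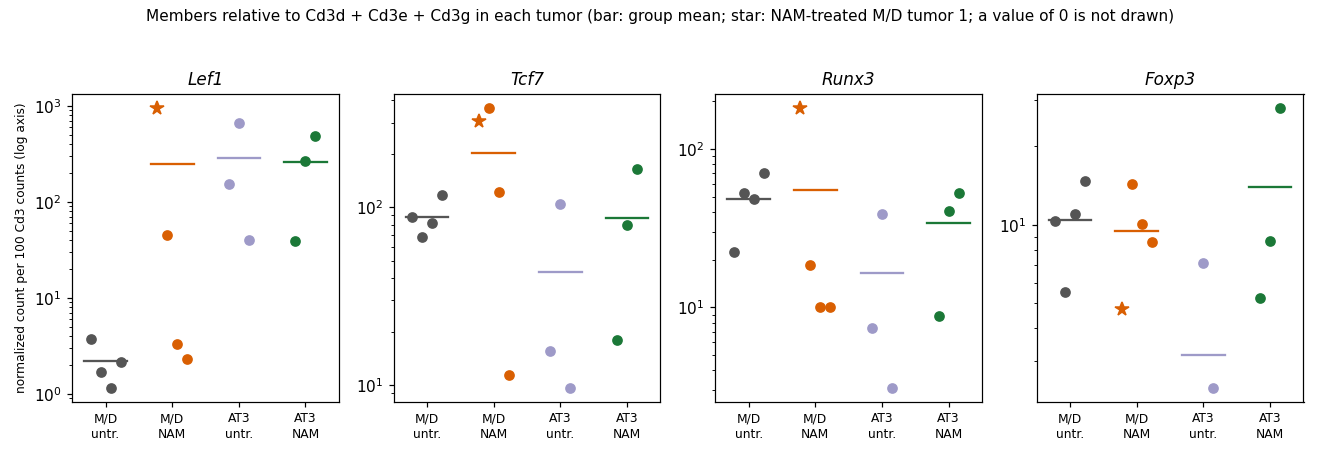
Normalized count of *Lef1*, *Tcf7*, *Runx3* and *Foxp3* per 100 counts of *Cd3d*, *Cd3e* and *Cd3g* together (vertical log axis), with 1 symbol per tumor, a star for NAM-treated M/D-driven tumor 1 and a bar for the group mean, and a value of 0 left out. *Lef1* lies at 1.15 to 3.70 in untreated M/D-driven tumors and at 39.3 to 657 in AT3 tumors.

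Genes known to act with or under these factors were counted from lists, to be read against the shares of all genes tested that were called: 3.03% higher and 3.19% lower with NAM in the M/D model, 12.2% and 10.9% in AT3 tumors, 6.97% and 7.9% in the difference, and 33.4% and 22.7% between untreated models. Without NAM-treated M/D-driven tumor 1 the shares in the M/D model were 2.85% higher and 2.33% lower. With the length trend removed, those in AT3 tumors were 8.73% and 7.24%. Of 32 other lymphoid factors, 2 were lower and 0 higher in NAM-treated M/D-driven tumors, *Bcl11b*, a guardian of T cell identity, at -2.79 (SE 0.87) and *Zbtb7b*, which specifies CD4+ T cells, at -0.87 (SE 0.30). Without NAM-treated tumor 1, 4 were lower and 1 higher. In AT3 tumors 14 of 29 were higher and 1 lower, with a median of 0.74. *Ebf1* and *Pou2af1*, factors of the B lineage, rose by 1.38 (SE 0.39) and 1.15 (SE 0.28) on the log2 scale, and *Id3*, an inhibitor of E proteins, fell by 0.98 (SE 0.22). With the length trend removed, 6 were higher and 0 lower. Between models 5 of 32 were lower and 1 higher in the difference of the NAM effect, among them *Runx1*, the paralog of *Runx3*, at -2.11 (SE 0.69), *Zbtb7b* at -1.63 (SE 0.44) and *Bcl11b* at -3.42 (SE 1.33). In untreated tumors, 21 were higher and 2 lower in M/D-driven tumors, led by *Id2* at -3.85 (SE 0.33), *Runx1* at 3.35 (SE 0.32) and *Gata3* at 3.78 (SE 0.39). *Runx1* and *Gata3* are also expressed by mammary epithelium.

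Genes of naive and memory T cells, the program of *Tcf7*, *Lef1* and *Bach2*, gave 0 calls of 10 in M/D-driven tumors, with or without NAM-treated tumor 1, and 1 lower in AT3 tumors (*Dapl1*, -1.29, SE 0.52). Of the 13 genes of effector cells, the program of *Tbx21*, *Eomes* and *Runx3*, 0 were called with NAM in either model. Without NAM-treated M/D-driven tumor 1, all 13 had log2 fold changes above 0 in M/D-driven tumors and 1 was called. The median over all genes in that fit was -0.0022. None of the 10 regulatory T cell genes measured was called with NAM in M/D-driven tumors, with or without NAM-treated tumor 1, nor of the 9 tested in AT3 tumors. Of 9 genes of exhausted T cells, where *Tox* acts, *Nr4a2*, an early response gene, was lower with NAM in M/D-driven tumors (-3.37, SE 0.74) and, with *Entpd1* (0.64, SE 0.25), higher in AT3 tumors (0.84, SE 0.32). Its NAM effect differed between models by -4.22 (SE 0.94). Without NAM-treated M/D-driven tumor 1, 1 gene of this list was lower and 0 higher in the M/D model. In untreated tumors these lists had 6 of 10, 7 of 13, 6 of 10 and 5 of 9 genes higher in M/D-driven tumors and 0 lower.

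Wnt targets, genes that TCF1 and LEF1 are known to control with beta-catenin, had 1 of 11 log2 fold changes above 0 in M/D-driven tumors, with a median of -1.12. The gene called lower was *Lgr5*, at -2.75 (SE 1.15). Without NAM-treated tumor 1, 3 of 11 were above 0, with a median of -0.52, and 1 was lower. Epithelial markers moved alongside, with 0 of 9 log2 fold changes above 0 and a median of -1.46 over all 8 tumors, and 3 of 9 and -0.31 without that tumor, and their part in the values of the Wnt targets was not tested. In AT3 tumors 1 of the 9 epithelial markers was higher and 2 were lower. There, 10 of 10 Wnt targets were above 0, with a median of 0.61, and 4 were higher, among them *Znrf3* (1.51, SE 0.41), *Axin2* (1.25, SE 0.42) and *Wif1* (0.92, SE 0.29). With the length trend removed, 4 were higher as well. In the difference between models 3 of 11 were lower, namely *Znrf3* (-2.10, SE 0.60), *Lgr5* (-3.59, SE 1.48) and *Axin2* (-3.14, SE 1.31). In untreated tumors, where *Lef1* was 23.3-fold lower in M/D-driven tumors, 8 of 10 Wnt targets were higher there, led by *Rnf43* (4.37, SE 0.44), *Axin2* (5.26, SE 0.73) and *Nkd1* (4.26, SE 0.62). Of the 9 epithelial markers, 6 were also higher there. Relative to Cd3 counts, 3 of 11 were lower in NAM-treated M/D-driven tumors, and 0 of 10 were called in AT3 tumors.

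Markers of other cells were read in the same fits. Of 10 T cell markers, 0 were called with NAM in either model, and their summed count was 3225 to 8188 in untreated and 3673 to 11225 in NAM-treated M/D-driven tumors, and 434 to 2044 and 633 to 1838 in untreated and NAM-treated AT3 tumors. Of 5 NK cell markers, *Klrd1* (1.18, SE 0.42) and *Klrb1c* (1.97, SE 0.74), NK receptors, rose with NAM in the M/D model, and 0 did in AT3 tumors. Without NAM-treated M/D-driven tumor 1, 1 of the 5 NK cell markers was higher, and 0 T cell, B cell, general leukocyte or endothelial markers were called. B cell markers (7) gave 0 calls in M/D-driven and 2 lower in AT3 tumors, among them *Cd79a* (-1.14, SE 0.43), at summed counts of 170.1 to 177 without and 97.2 to 101 with NAM. In the M/D model the sum of these markers was 171569 in NAM-treated tumor 1, against 147 to 1864 in the 7 other tumors. Of 5 general leukocyte markers, *Laptm5* (1.02, SE 0.24) and *Ptprc* (0.71, SE 0.24) were higher with NAM in AT3 tumors, as were 4 of 5 endothelial markers, against 0 calls in both lists in M/D-driven tumors. Of 7 precursor B cell markers tested in AT3 tumors 3 were higher, among them *Cd93* (1.67, SE 0.46), and 1 was lower, *Rag1* (-0.83, SE 0.35). The AT3 calls among these markers are from the fit with the length trend left in. There 4458 genes were called, against 2627 with the trend removed. The part of any of these cells in the values of the members was not tested.

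Members were finally compared with all genes in their pattern over the 14 tumors, by Pearson's r of log2 values after subtraction of each model's mean, among 13041 genes with a symbol and a group mean of at least 50 normalized counts in both models. Tumors of a group share a treatment and library depth varies, so r is a description. *Runx3* was most like *Runx1* (r = 0.91), *Lgr5* (0.90) and *Arhgap10* (0.90), or 0.90, 0.89 and 0.88 over the 13 tumors without NAM-treated M/D-driven tumor 1. *Tbx21* was most like the interferon-induced *Igtp* (0.94) and the cytotoxic granule gene *Nkg7* (0.93), with 0.94 and 0.93 over 13 tumors. *Tox* was most like *Foxs1* (0.93), *Fbxw17* (0.83) and the lymphoid surface gene *Cd7* (0.83), and *Tcf7* like *Yars* (0.91), *Ppp2r1b* (0.88) and *Sipa1l1* (0.87). *Foxp3* was most like the integrin gene *Itgb7* (0.87), *Fam219a* (0.85) and *Myo1f* (0.84), and *Eomes* like *Spice1* (0.80), *Smyd5* (0.79) and *Mccc1* (0.78).

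For *Ikzf1*, *Lef1* and *Bach2*, r with the genes most like them was lower without NAM-treated M/D-driven tumor 1. The genes most like other members could change too. *Runx3* was then most like *Ccdc120* (0.94, against 0.05 over 14 tumors), whereas *Tox* and *Tcf7* kept *Foxs1* (0.92) and *Yars* (0.93) first. *Ikzf1* was most like the integrin gene *Itga4* (0.98), *Git2* (0.98) and the PI3 kinase gene *Pik3cd* (0.97), which had 0.94, 0.91 and 0.89 without that tumor. *Lef1* was most like *Cacna1b* (0.93), *Pim2* (0.91) and *Snn* (0.90), with 0.83, 0.80 and 0.75 without it. *Bach2* was most like *Phf19* (0.97), *Prkd2* (0.95) and a septin gene that the table spells sept-06 (0.94), with 0.90, 0.84 and 0.82 without it. Between members, r of *Ikzf1* with *Lef1* went from 0.70 over 14 tumors to 0.06 over 13, and r of *Ikzf1* with *Bach2* from 0.86 to 0.54, whereas r of *Tbx21* with *Tox* was 0.64 over both.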

How the data were processed

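RNA from 14 tumors was sequenced as paired reads of 75 nucleotides from TruSeq mRNA libraries. Reads were aligned by the authors with STAR 2.4.0 to mm10 and counted on constitutive regions of Mouse FAST DB genes, with FastQC, Picard and SAMtools also named in the submitters' processing notes. The values deposited by the authors are counts divided by DESeq2 size factors, a normalized signal set in each model apart, from which whole reads were recovered for every value within 0.01 of a read. Totals were 40936868 to 84178009 reads per tumor. From these, log2(normalized count + 1) was tested in limma 3.58.1 (R 4.3.3), with the trend of variance on level, keeping genes whose mean reached 10 in 1 or more groups. Fold changes are on that scale, and those of low genes can differ from the values of edgeR and DESeq2 in either direction. A call needed an unadjusted p no higher than 0.05 and a change of 1.5-fold or more. The study used the same cut-off values, but its methods do not state whether that p was adjusted. Adjusted p values are those of limma after Benjamini-Hochberg over all genes tested. Relative to Cd3 counts, the log2 of the summed *Cd3d*, *Cd3e* and *Cd3g* counts was subtracted. The length and GC trend was removed with a spline of 4 degrees of freedom. Untreated models were compared on reads rescaled by TMM. edgeR 4.0.16 and DESeq2 1.42.0 on recovered reads were alternatives. Scripts (Python 3.11.15, pandas 2.3.3, numpy 2.4.6) were tested on simulated data. All 9 members were named, and of each list the 3 genes with the smallest p among those called in a comparison, and for each member the 3 genes most like it. A few genes that this rule names are not reported here. The members and lists were chosen with earlier results of these data known. Replicates are separate tumors in the labels, so p values measure the spread between these tumors.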

Additional observations from a re-analysis of the deposited data

Results flagged for a closer look

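Among 18 groups of 4 M/D-driven tumors (9 members, untreated and NAM-treated), 5 had 1 tumor far from the other 3. The gap was measured on normalized counts, not on log2 values, and set against Dixon's critical value. Chance passes that value in about 1 of 20 groups only where values are normally distributed. The 5 groups are therefore not weighed against that rate, and groups made of the same tumors are not separate tests. NAM-treated tumor 1 was far above the others in *Ikzf1* (7693 normalized counts), *Lef1* (5077) and *Bach2* (15020.1), and this is the tumor with the high precursor B cell and low epithelial marker sums. Untreated tumor 1 was far above the others in *Lef1*, at 99.7 normalized counts, and NAM-treated tumor 4 in *Tbx21*, at 439. The effect of NAM on *Runx3* differed between the models before adjustment, with a difference of log2 fold changes, M/D-driven minus AT3, of -2.43 in limma, but the adjusted p was 0.215, 7.9% of genes were called in this direction and 0 genes held after adjustment in limma. The causes of these values were not tested.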

How the results depend on the processing

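Outside the fits that left out 1 tumor, 493 values for single members kept their direction and their side of the thresholds, 18 lost the call, 6 gained it and 17 turned direction, and the cause was not tested unless named. Asking for an adjusted p of at most 0.05 in limma left 1, 1, 0, 0 and 1 genes and 0 members for NAM in M/D-driven tumors, in AT3 tumors, the difference, and M/D-driven and AT3 tumors relative to Cd3, whereas DESeq2 left 179 and 2047 genes and 1 and 3 members for M/D-driven and AT3 tumors. For M/D-driven tumors, 1350 genes became 2180 with no filter, 859 with a minimum mean of 50, 2092 with DESeq2 and 2225 with all 14 tumors in 1 fit, and members called became 2 with edgeR. For AT3 tumors 4458 genes became 2627 with the length and GC trend removed (16% of 16444 genes), and 4 members became 2 with all 14 tumors. For the difference, 3377 genes became 2143 with the trend removed, and 1 member became 2 with edgeR, with DESeq2 and with the replicate block. Relative to Cd3, 837 genes in M/D-driven tumors became 1366 with *Ptprc* as the reference, with 2 members, and 77 genes in AT3 tumors became 42 with a pseudocount of 5, 25 with the replicate block and 7575 with *Ptprc*. The AT3 member called there was lost (0 members) with a pseudocount of 5, no filter, a minimum mean of 50 and the block. Directions turned for *Foxp3* in M/D-driven tumors with DESeq2 (0.014), in AT3 tumors for *Lef1* with upper quartile scaling (-0.15) and for *Lef1* and *Bach2* with the trend removed (-0.044 and -0.088). In the difference they turned for *Ikzf1* with a pseudocount of 5 (0.053), upper quartile scaling (0.27), edgeR (1.28), DESeq2 (1.39) and the trend removed (0.39), and for *Bach2* with edgeR (0.50), DESeq2 (0.60) and the trend removed (0.27). With *Ptprc* they turned for *Tcf7* (-0.28), *Bach2* (-0.26) and *Tbx21* (-0.049) in M/D-driven and *Lef1* (-0.65) and *Tox* (-0.32) in AT3 tumors. Leaving out 1 tumor at a time, genes called ranged from 784 to 2712 in M/D-driven tumors, 1618 to 6765 in AT3 tumors, 1838 to 4574 for the difference, 10772 to 12607 between untreated models, and 611 to 1487 and 18 to 1386 relative to Cd3 in M/D-driven and AT3 tumors. Members called ranged in this order from 0 to 2, 1 to 5, 1 to 3, 7 to 8, 1 to 2 and 0 to 3. Ranges that crossed 0 were -0.68 to 0.83 (*Bach2*), -0.79 to 0.43 (*Foxp3*) and -0.34 to 0.81 (*Tcf7*) in M/D-driven tumors, -0.25 to 0.58 (*Lef1*) and -0.43 to 0.41 (*Tbx21*) in AT3 tumors, and -1.39 to 0.12 (*Bach2*) and -1.12 to 0.58 (*Ikzf1*) for the difference. Relative to Cd3 they were -0.98 to 0.99 (*Bach2*), -0.43 to 0.13 (*Foxp3*), -0.010 to 2.13 (*Ikzf1*) and -0.20 to 1.46 (*Tcf7*) in M/D-driven tumors, and -0.013 to 1.77 (*Bach2*), -0.95 to 0.60 (*Eomes*), -0.88 to 1.17 (*Lef1*), -0.42 to 0.40 (*Tbx21*) and -0.17 to 1.29 (*Tox*) in AT3 tumors. Same-numbered tumors did not deviate together (mean correlation -0.18 in M/D-driven and 0.07 in AT3 tumors), so the replicate block pairs tumors that share a number only. *Foxp3* in AT3 tumors, at 0 to 69 reads, is the value most limited by depth.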
